A study of Mus musculus with 2 samples.

Results

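Costimulatory receptors are surface proteins that add a second signal to that of the T cell receptor. The 8 members were the genes Tnfrsf18, Tnfrsf4, Tnfrsf9, Tnfrsf1b, Cd27, Cd28, Icos and Cd226, found by symbol in the annotation of the array. They were chosen with earlier results of these data known. Each had 1 probe, so they made up 8 of the 23473 probes and 8 of the 19316 genes with a symbol. RNA was measured in extracellular vesicles that mouse cytotoxic T lymphocytes (CTL), the killer cells among T cells, had shed into their medium over 7 days of culture. One vesicle fraction left a DEAE column, a positively charged resin that holds negatively charged particles, at 0.5 M NaCl, and the other left it at 0.3 M NaCl. Both fractions came from medium that had been concentrated and freed of protein with a 750 kDa ultrafiltration membrane, and both RNAs were amplified and labelled with Cy5. The sources used here do not state the mouse strain, the age, the stimulus of the cells or how many cultures stand behind a fraction. There was 1 array for each fraction, so no test, p-value or replicate error can be given, and every difference describes this pair of arrays.

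T cells use costimulatory receptors of different families. Receptors of the TNF receptor family bind TNF-like ligands as trimers and recruit TRAF adaptors, which lead to NF-kB activity and cell survival. CD28 and ICOS belong to the immunoglobulin superfamily, bind B7-type ligands and recruit phosphoinositide 3-kinase. GITR (Tnfrsf18), OX40 (Tnfrsf4), 4-1BB (Tnfrsf9) and ICOS are known as receptors that T cells make more of after activation, whereas CD27 and CD28 are already present on resting T cells. Regulatory T cells are known to carry GITR and OX40 as well. CD226, also called DNAM-1, is an immunoglobulin-like receptor that binds the nectin-type ligands Pvr and Nectin2, and it belongs to neither family.

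A value was present for 16732 probes (71.3%) at 0.5 M and for 18969 (80.8%) at 0.3 M, and all 8 members had a value on both arrays. Intensities are in arbitrary units, and levels are not compared between probes. Differences are log2 intensities at 0.5 M minus 0.3 M after both arrays were set to the same median over the 16154 probes with a value on each. Before that step the shift between the arrays was -0.30. A gene was kept when either array placed it no lower than the middle of the measured genes, and all 8 members were among the 7446 kept genes. Such a filter favours genes that are bright on either array. The median difference of kept genes was 0.08 and 55.9% lay above 0. Different probes of the same gene had differences with an SD of 0.55 over 358 kept genes. The differences of all kept genes had an SD of 0.56. Probes of 1 gene thus differed about as much as genes did, and each member rests on 1 probe. This spread between probes is the only error that these data allow, and it leaves out variation between vesicle preparations. Fewer vesicles that hold a transcript and less of that transcript per vesicle cannot be told apart.

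With centring, 3 TNF receptors were higher at 0.5 M by more than 1 SD of the probe spread. The other members were near 0 or lower. The gap between the lowest of the 3 and the next member, 0.59, was about as large as that spread. Tnfrsf18 (1.12), Tnfrsf4 (0.85) and Tnfrsf9 (0.68) were higher at 0.5 M, and Icos (-0.91) was lower. Tnfrsf1b (-0.24), Cd27 (-0.29), Cd226 (-0.34) and Cd28 (0.10) lay within 1 SD of the probe spread from 0. Only Tnfrsf18 reached the size rule of 2-fold, which 5.24% of kept genes met upward and 2.35% downward. None of the 8 was at least 2-fold lower. The shares of kept genes past 2-fold depend on the scaling, and were 1.63% upward and 7.78% downward on the values as deposited and 3.32% and 3.82% with quantile normalization.

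The promoters of the 3 receptors that were higher at 0.5 M are shown because these genes had differences of the same sign and all lie on chromosome 4. Tnfrsf1b lies on chromosome 4 as well, with a difference of -0.24. Each line gives the 250 bases before the transcript start, 5′ to 3′, from RefSeq on GRCm38.p6. Capitals mark matches to the NF-kB motif and to the AP-1 motif on either strand.
Tnfrsf18, chr4:156026072-156026321, plus strand: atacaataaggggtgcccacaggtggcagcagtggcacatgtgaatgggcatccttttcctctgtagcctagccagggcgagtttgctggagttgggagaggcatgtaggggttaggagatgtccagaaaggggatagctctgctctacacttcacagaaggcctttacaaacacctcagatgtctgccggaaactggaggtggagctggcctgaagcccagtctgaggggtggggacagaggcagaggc
Tnfrsf4, chr4:156013445-156013694, plus strand: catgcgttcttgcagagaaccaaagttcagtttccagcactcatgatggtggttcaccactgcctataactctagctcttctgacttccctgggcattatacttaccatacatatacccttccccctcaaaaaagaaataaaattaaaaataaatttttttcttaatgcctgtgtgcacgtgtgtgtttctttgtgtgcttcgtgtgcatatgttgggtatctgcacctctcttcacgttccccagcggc
Tnfrsf9, chr4:150927749-150927998, plus strand: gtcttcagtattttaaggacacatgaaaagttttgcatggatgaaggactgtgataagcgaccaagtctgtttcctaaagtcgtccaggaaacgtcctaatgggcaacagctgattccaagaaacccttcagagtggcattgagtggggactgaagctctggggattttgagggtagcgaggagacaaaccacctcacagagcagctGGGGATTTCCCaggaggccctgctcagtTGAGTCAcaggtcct
The windows of Tnfrsf18 and Tnfrsf4 held no match to either motif, nor did those of Tnfrsf1b and Cd27, which are not shown. Cd28 and Icos had no window in the promoter sequences used, and Cd226 was left out. The motifs thus cannot be compared between the families. Tnfrsf9 has 2 annotated starts, and the window shown is the one with matches. It held 2 overlapping NF-kB matches that begin 43 and 42 bases before the start, and an AP-1 match that begins 15 bases before it. The first Tnfrsf9 window held neither motif. Across 32851 promoter windows of the same length, 7.25% held the NF-kB motif and 4.46% the AP-1 motif. A match is a run of letters and was not tested as a binding site. The array measured vesicle RNA and does not report on promoter use.

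Tnfrsf18, which encodes GITR, had an intensity of 1630 at 0.5 M, against 923 at 0.3 M. It was 2.17-fold higher at 0.5 M after centring, and 241 of the kept genes (3.24%) had a larger difference. Tnfrsf18 lay in the brightest of 10 groups of kept genes ranked by mean level, and the median difference of that group was 0.46. In that group, 6.85% of 745 genes exceeded its difference and 13.8% were at least 2-fold higher. Its difference was 0.71 once the trend of difference on level was removed by loess and 0.77 with quantile normalization, so it passed 2-fold only under some scalings. It was 0.82 on the values as deposited.

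Tnfrsf4, which encodes OX40, had an intensity of 400 at 0.5 M, against 273 at 0.3 M. This gave a 1.80-fold higher level after centring, and 8.89% of kept genes had a larger difference. Its difference lay between 0.55 and 0.89 over the settings tried. Tnfrsf9 encodes 4-1BB, a receptor used to pick out antigen-activated CD8 T cells. Its intensity was 103 at 0.5 M, against 79 at 0.3 M. Its level was 1.60-fold higher after centring, and 1114 of the kept genes had a larger difference. Its difference was 0.63 with loess, and genes of its brightness group had a median difference of 0.07. Tnfrsf18, Tnfrsf4 and Tnfrsf9 were thus all brighter at 0.5 M on the values as deposited, whose normalization is not stated. The arrays' medians over shared probes were 26 at 0.5 M and 32 at 0.3 M, and over all probes with a value 25 on each. The median centred difference was 0.46 in the brightness group of Tnfrsf18 and 0.23 in that of Tnfrsf4.

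The other members of the TNF receptor family were dimmer at 0.5 M. Tnfrsf1b encodes TNF receptor 2, the TNF receptor that carries no death domain. Its intensity was 217 at 0.5 M, against 316 at 0.3 M, a difference of -0.24 that 72.3% of kept genes exceeded. Cd27, the receptor for the ligand Cd70, had an intensity of 30 at 0.5 M, against 45 at 0.3 M, and a difference of -0.29. Cd27 was close to the median intensity of shared probes, where a change of a few units moves the log2 value. Both stayed below 0 under every scaling tried, and neither lay beyond 1 SD of the probe spread with centring.

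Icos, a CD28 relative that supports T cell help and effector function, was the member with the lowest difference. Its intensity was 67 at 0.5 M, against 155 at 0.3 M. After centring it was 1.88-fold lower at 0.5 M, and only 255 kept genes (3.42%) had a lower difference. Among the 745 genes of its own brightness group, 1.48% were lower and 0.537% were at least 2-fold lower. Its difference ran from -1.21 on the values as deposited to -0.85 with a pseudocount, and it passed 2-fold on the values as deposited, where 7.78% of kept genes did so downward, and by a narrow margin with quantile normalization, where 3.82% did. Cd28, the receptor of the classical second signal, had an intensity of 672 at 0.5 M, against 774 at 0.3 M. Its difference of 0.10 had no stable sign. It was -0.24 with loess, -0.14 with quantile normalization and -0.20 as deposited. Cd28 lay in the brightest of the 10 groups, where the median difference was 0.46 and 67.1% of genes exceeded its own. Cd226 had an intensity of 38 at 0.5 M, against 59 at 0.3 M, and its difference was -0.34, with 78.0% of kept genes above it.

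**Figure D1:**
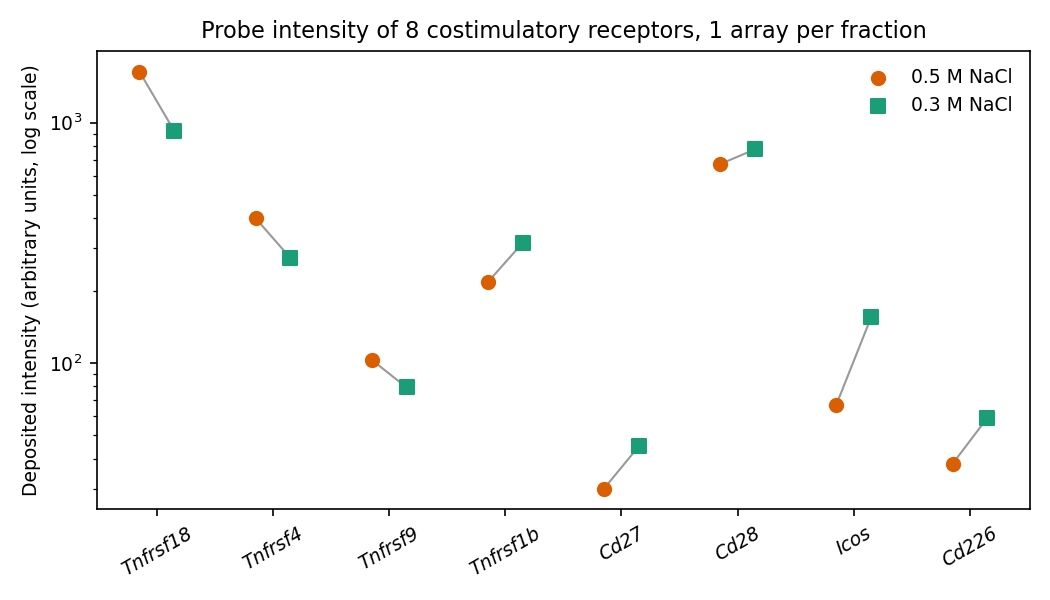
Deposited probe intensity (arbitrary units, log scale) of the 8 receptors, with the 0.5 M NaCl array as circles and the 0.3 M NaCl array as squares, 1 array each and a grey line joining the values of a gene. Tnfrsf18, Tnfrsf4 and Tnfrsf9 were brighter at 0.5 M and the other 5 were dimmer. Heights are not to be compared between genes.

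**Figure D2:**
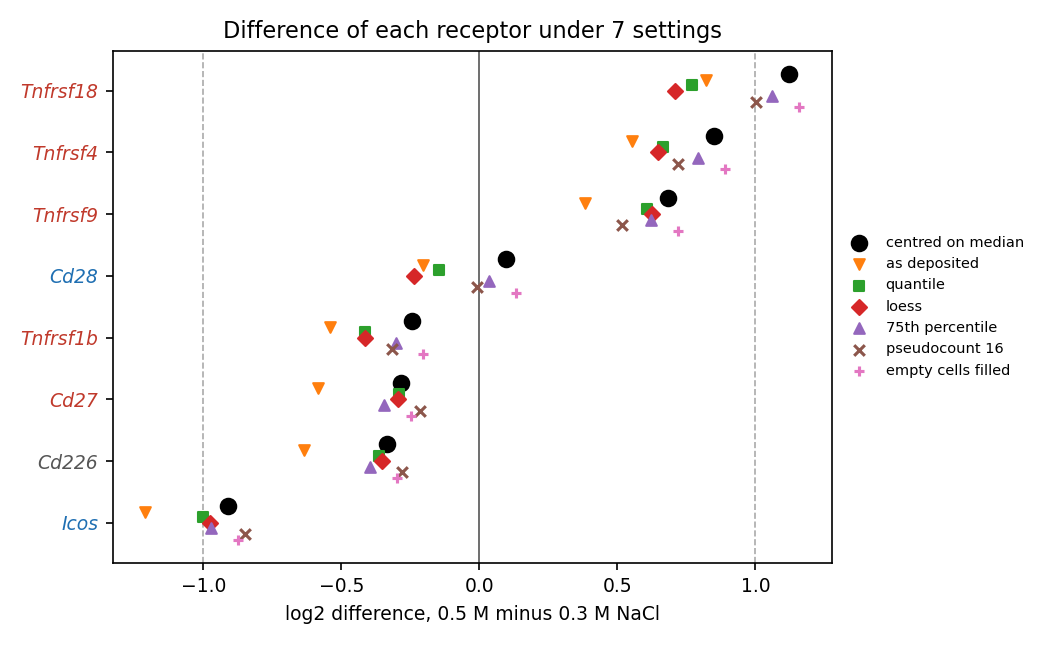
Log2 difference (0.5 M minus 0.3 M NaCl) of each receptor under 7 settings, ordered from the highest centred difference at the top, with gene names in red for the TNF receptor family, blue for the CD28 family and grey for Cd226. Dashed lines mark 2-fold. Cd28 was the only member whose points lay on both sides of 0.

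Ordered by difference, the members ran Tnfrsf18, Tnfrsf4, Tnfrsf9, Cd28, Tnfrsf1b, Cd27, Cd226 and Icos. The gaps between Tnfrsf18 and Tnfrsf4 (0.27) and between Tnfrsf4 and Tnfrsf9 (0.17) were under the probe spread of 0.55, as were those from Cd28 to Tnfrsf1b (0.34), from Tnfrsf1b to Cd27 (0.04) and from Cd27 to Cd226 (0.05). The wider gaps, 0.59 below Tnfrsf9 and 0.58 above Icos, were about as large as that spread. Neighbours in this order are therefore not separated by the error that could be estimated.

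The comparison between families asked whether TNF receptor transcripts and CD28 family transcripts divided differently between the fractions. The 5 TNF receptor members had a median difference of 0.68, with 3 above 0 and 2 below, and ran from -0.29 to 1.12. The CD28 family had a median of -0.41 over 2 members, 1 above 0 and 1 below. The difference between these medians was 1.09, and a constant shift between the arrays cancels from it. It lay between 0.95 and 1.23 over 7 settings of scaling, pseudocount, probe choice and empty cells. Only quantile normalization (1.18), loess (1.23) and the pseudocount (0.95) could move it. The other settings left it at 1.09 by design, since constant shifts cancel and each member has 1 probe and values on both arrays. With means in place of medians it was 0.83. Over all measured genes of the wider families, given below, the medians lay in the opposite order. The difference of 1.09 rests on few genes, which were chosen with earlier results of these data known. It was 0.59 without Icos and 1.59 without Cd28, and 0.63 without Tnfrsf18 or without Tnfrsf4 and 0.71 without Tnfrsf9. With Cd226 counted beside Cd28 and Icos it was 1.02.

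Pairs of 1 TNF receptor and 1 CD28 family gene show where that difference lay. The TNF receptor had the higher difference in 8 of 10 pairs and by at least 2-fold in 4. The ratio of Tnfrsf18 to Icos was 4.09-fold higher at 0.5 M than at 0.3 M, that of Tnfrsf4 to Icos 3.39-fold and that of Tnfrsf9 to Icos 3.02-fold. The ratio of Tnfrsf18 to Cd28 was 2.03-fold higher. Tnfrsf1b and Cd27 had lower differences than Cd28, by -0.34 and -0.38. The families therefore overlapped in their differences, and the 10 pairs share genes and are not independent.

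**Figure D3:**
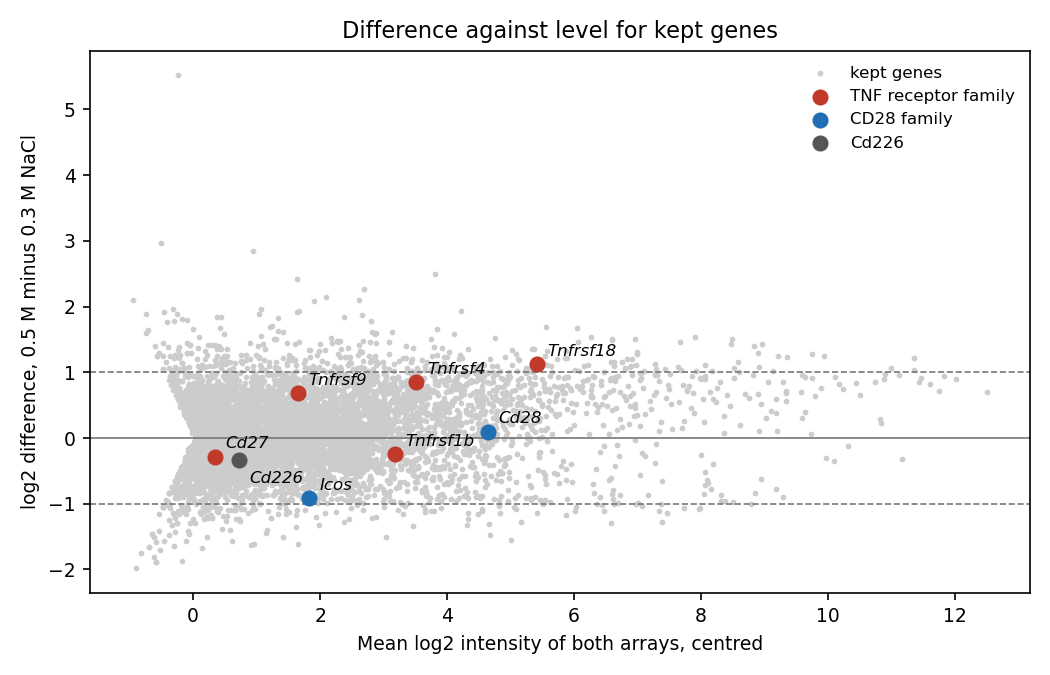
Log2 difference (0.5 M minus 0.3 M NaCl) against mean centred log2 intensity for the 7446 kept genes in grey, with the TNF receptor members in red, the CD28 members in blue and Cd226 in dark grey. Dashed lines mark 2-fold. Icos lies near the lower edge of the genes of its brightness, Tnfrsf18 lies just above the 2-fold line among many bright genes, and Cd28 lies close to 0.

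Kept genes of the TNF receptor superfamily lay near the median of all kept genes, and most of the dimmer ones lay below 0. Of 28 superfamily genes on the array, members included, 21 were measured on both arrays and 12 were kept, of which 6 lay above 0 and 6 below, with a median of 0.06. Over all 21 measured genes, 8 lay above 0 and 13 below, with a median of -0.21. The 7 kept genes that are not members had a median of -0.0030, against 0.08 for all kept genes, and without the filter the median of the measured non-members was -0.23. Among the kept ones only Cd40, the receptor through which helper T cells activate B cells and macrophages, passed 2-fold, at 40 at 0.5 M and 24 at 0.3 M (1.04). It did not pass on the values as deposited, with the 75th percentile or with a pseudocount. With Cd28, Icos and Cd226 counted in, 6 kept CD28 and nectin receptor relatives had a median of -0.12, against 0.06 for the superfamily. Over the 7 measured relatives the median was 0.10, against -0.21. Among relatives of Cd28 and Cd226, 3 non-members were kept, with a median of 0.51. The inhibitory receptor Ctla4, which competes with Cd28 for its ligands, had an intensity of 82 at 0.5 M, against 64 at 0.3 M (0.66). Btla, an inhibitory receptor for the TNF receptor HVEM, had 1405 at 0.5 M, against 1211 at 0.3 M (0.51). Cd96, a receptor that shares the ligand Pvr with Cd226, had 179 at 0.5 M, against 291 at 0.3 M (-0.40), and is named here because it was the only other gene kept.

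Most ligands of the members lay below the filter or were empty on an array. Of 11 ligand genes with a probe, 7 were measured on both arrays and 3 were kept, all above 0, with a median of 0.30. Lta, lymphotoxin, a ligand of TNF receptors that T cells make, had 53 at 0.5 M and 47 at 0.3 M (0.47). Nectin2 had 44 on each array (0.30), while another probe of it was empty on both. Cd86, a B7 ligand of Cd28, had 37 at 0.5 M and 38 at 0.3 M (0.26). Below the filter, Cd80, the other B7 ligand of Cd28, had 21 at 0.5 M and 30 at 0.3 M on the probe measured on both arrays, Tnf had 9 and 11, the Cd70 probe 10 and 5, and the 4-1BB ligand Tnfsf9 5 and 6, each with the 0.5 M value first. The OX40 ligand Tnfsf4 was empty at 0.5 M and 4 at 0.3 M, and the ICOS ligand Icosl was empty at 0.5 M and 7 at 0.3 M. The GITR ligand Tnfsf18 and Pvr were empty on both arrays. An empty cell is not a level of 0, since the rule that left it empty is not known.

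Other ligands of the TNF and B7 families had a median of 0.12 over 9 kept genes, with 5 above 0 and 4 below. Their largest absolute differences belonged to Tnfsf14, the ligand LIGHT, at 20 at 0.5 M and 38 at 0.3 M (-0.63), and to Tnfsf8, the CD30 ligand, at 39 at 0.5 M and 64 at 0.3 M (-0.42). None passed 2-fold in either direction, and the median was below 0 on the values as deposited and with loess or quantile normalization.

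Downstream genes of the TNF receptors had medians near that of all genes. The TRAF adaptors and their partners had a median of 0.21 over 10 kept genes, 7 above 0 and 3 below, and 0 were past 2-fold. Traf1, an adaptor recruited to 4-1BB and OX40 and induced by NF-kB, had 336 at 0.5 M, against 218 at 0.3 M (0.92). Siva1, a protein first found as a partner of CD27, had 957 at 0.5 M, against 688 at 0.3 M (0.78). The NF-kB kinases, subunits and inhibitors had a median of 0.09 over 10 kept genes, 7 above 0 and 3 below, with 0 past 2-fold. The largest were Nfkbia, the inhibitor that NF-kB induces to shut itself off, at 647 at 0.5 M and 465 at 0.3 M (0.78), and Tnfaip3, the ubiquitin-editing inhibitor A20, at 51 at 0.5 M and 38 at 0.3 M (0.72). Both list medians were below 0 on the values as deposited.

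The genes that carry the CD28 signal had a median of 0.15 over 8 kept genes, 4 above 0 and 4 below, with 0 past 2-fold. Akt1, a kinase downstream of phosphoinositide 3-kinase, had 376 at 0.5 M, against 291 at 0.3 M (0.67), and Pdpk1, which phosphorylates Akt, had 27 at 0.5 M, against 24 at 0.3 M (0.47). Survival genes that costimulation is known to raise had a median of -0.11 over 4 kept genes, 2 above 0 and 2 below. The kinase gene Pim2 had 578 at 0.5 M, against 409 at 0.3 M (0.80), and Mcl1, a member of the Bcl2 family, had 622 at 0.5 M, against 1079 at 0.3 M (-0.50). Over the adaptor, NF-kB, CD28 signalling and survival lists together, 0 of 32 kept genes were past 2-fold, beside 7.59% of all kept genes in either direction. Some of them had differences as large as those of the members short of 2-fold, among them Traf1 (0.92) beside Tnfrsf4 (0.85). The count of 0 depends on the filter. Without it, 2 CD28 signalling genes, Vav1 (1.47) and Pik3r1 (1.30), and 1 gene of the TRAF list, Traf5 (-1.02), were past 2-fold. All had low intensities.

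**Figure D4:**
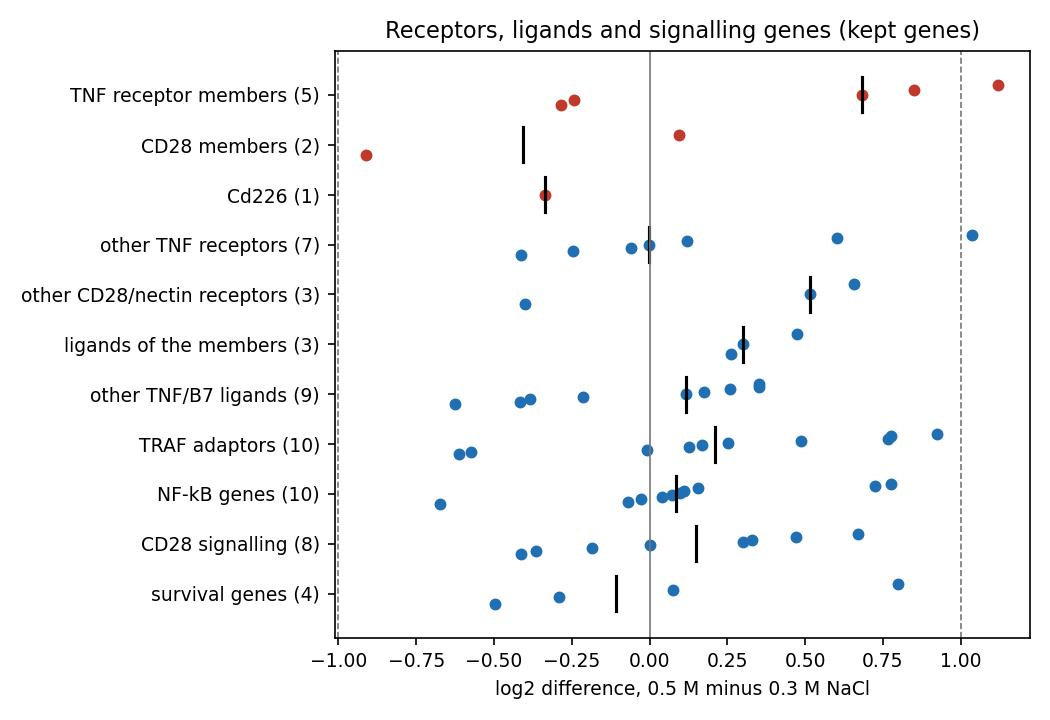
Log2 difference (0.5 M minus 0.3 M NaCl) of each kept gene in the member families (red) and in the lists of relatives, ligands and downstream genes (blue), with black bars at the medians, dashed lines at 2-fold and the number of kept genes in brackets. Tnfrsf18 and Cd40 are the only points beyond 2-fold.

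The vesicle RNA carried CTL transcripts. The list of 10 CTL markers had 9 kept genes with a median of 0.52, 7 above 0 and 2 below, and its summed intensity was 8422 at 0.5 M, against 8365 at 0.3 M. Cd8a had 2463 at 0.5 M, against 3677 at 0.3 M (-0.28), Gzmb had 2838 against 2493 (0.49) in the same order, and the chemokine gene Ccl5 had 661 against 258 (1.66). Another Cd8a probe was empty on both arrays. Cd3e was dim, at 14 at 0.5 M and 12 at 0.3 M. Since regulatory T cells also carry GITR and OX40, their markers are given beside the members. Helper and regulatory T cell markers summed to 267 at 0.5 M and 288.5 at 0.3 M over 8 measured genes, with a median of -0.04 over 3 kept genes. Foxp3, the factor that defines regulatory T cells, was dim on both of its probes, at 16 and 8 at 0.5 M and 13 and 12 at 0.3 M. Of the kept genes, Ctla4, also given above, was at 0.66, and Cd4 was 25 at 0.5 M and 40 at 0.3 M (-0.38).

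Some markers of other cells were also higher at 0.5 M and others were lower, where 55.9% of all kept genes lay above 0. B cell markers summed to 737 at 0.5 M and 424 at 0.3 M over 6 measured genes, 2.14-fold higher after centring. Of 4 kept genes, 3 were at least 2-fold higher, namely Cd74 (2.43), Cd79b (2.10) and Blnk (1.58). Over all kept genes, 5.24% were at least 2-fold higher and 2.35% lower. The fourth, Cd22, had 126 at 0.5 M, against 225 at 0.3 M (-0.54), and is named because it completes the kept genes. The B cell factor Pax5 was empty on both arrays, and Cd79a (11 and 15) and Ms4a1 (21 and 21, 0.5 M first) were dim. Myeloid markers summed to 1331 at 0.5 M and 659 at 0.3 M over 9 measured genes, 2.49-fold higher, with H2-Aa (2.50), H2-Eb1 (2.09) and Ciita (1.30) higher and Mrc1 (-1.27) lower among 6 kept genes. Without the MHC class II chains H2-Aa and H2-Eb1, left out after the values were seen, the other 7 myeloid genes summed to 268 at 0.5 M and 413 at 0.3 M. No such step was taken for Cd74 in the B cell sum. Adgre1 and Itgam were empty on both arrays. NK cell markers summed to 307 at 0.5 M and 253 at 0.3 M over 5 measured genes, with Klrd1 (0.63) and Tyrobp (0.46) leading 3 kept genes, while Klrb1c and Klrk1 were empty on both arrays. Red cell and platelet markers summed to 7983 at 0.5 M and 17226 at 0.3 M over 6 measured genes, and Hbb-bs had the lowest difference, with 1518 at 0.5 M, against 3747 at 0.3 M. The part of any of these cells in the receptor differences was not tested.

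By position, some members lie next to related genes. Tnfrsf4 and Tnfrsf18 are next to each other among protein-coding genes of chromosome 4, and both were higher at 0.5 M. The outer neighbours, Sdf4 (62 on each array, 0.30) and Ttll10 (9 on each array), had equal deposited values, which centring turns into 0.30. Tnfrsf9, elsewhere on chromosome 4, lies beside Park7, which had 1281 at 0.5 M, against 834 at 0.3 M (0.92). Tnfrsf1b lies beside Tnfrsf8, the receptor CD30, at 37 at 0.5 M and 30 at 0.3 M (0.60), whereas Tnfrsf1b itself was at -0.24. Ctla4 lies between Cd28 and Icos on chromosome 1, and its difference of 0.66 was above those of both neighbours (0.10 and -0.91). Cd27 on chromosome 6 lies between Tapbpl (0.80) and Tuba3a (0.94). Both were kept but had low intensities, 34 and 28 at 0.5 M and 24 and 18 at 0.3 M. The remaining protein-coding neighbours had no probe (Dhrs3, Dok6), lay below the filter (Per3, Pard3b, Rttn) or were not measured on both arrays (Raph1). The restriction to protein-coding neighbours was made after the values were seen, since most nearest annotated genes were noncoding and had no probe.

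Genes whose levels were most like those of a member were found by the Euclidean distance of centred log2 levels, over only 2 arrays. Closest to Tnfrsf18 were the phosphatase subunit Ppp2r1a (distance 0.04, 1663 at 0.5 M and 942 at 0.3 M), the interferon-induced Ifitm2 (0.05, 1613 and 896) and the complex I subunit Ndufb7 (0.07, 1704 and 943). Closest to Tnfrsf4 were the dynein chain Dync1h1 (0.02, 402 and 270), the actin nucleator Spire2 (0.02, 400 and 277) and the nuclear NF-kB inhibitor Nfkbid (0.06, 390 and 281). Closest to Icos were Mier1 (0.04, 68 and 151), the aquaporin Aqp2 (0.05, 67 and 150) and the transporter Slc7a13 (0.05, 68 and 160). Many genes share any given pair of intensities, so closeness here describes levels alone.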

How the data were processed

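The authors deposited 1 linear intensity per probe and array, as whole numbers, with some cells empty. Per the labels' protocols, amino allyl amplification of total RNA was followed by Cy5 labelling. The sources used here do not state the scanner, the background correction, the normalization or why cells are empty. Probes were named from the array annotation, and symbols came from a RefSeq table of GRCm38.p6 through the Entrez identifier (20556 probes) or the accession (9). Another 125 kept the array's symbol and 2783 had none.

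Intensities were log2-transformed and centred on each array's median over shared probes. Probes of a gene with values on both arrays were averaged. With 1 array per fraction there was no test. The number of arrays limits the precision. A difference of 1 on the log2 scale (2-fold) was the size rule. Alternatives were no centring, the 75th percentile, quantile normalization, loess (span 0.3), a pseudocount of 16, the brightest probe, empty cells set to the array's lowest intensity, and other filters. The steps were tested on simulated data with Python 3.11.15, numpy 2.4.6, pandas 2.3.3 and statsmodels 0.14.6.

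Members, gene lists and alternatives were chosen with earlier results of these data known. All 8 members and their ligands were named whatever their values, along with Cd8a, Cd3e, Gzmb and Foxp3. Of each list, up to 4 kept genes past 2-fold were named, or otherwise the 2 with the largest absolute difference. For Tnfrsf18, Tnfrsf4 and Icos the 3 nearest kept genes were named, passing over predicted and RIKEN names, and for every member its neighbours on the chromosome.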

Additional observations from a re-analysis of the deposited data

How the results depend on the processing

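Of the 8 members, 7 kept the sign of their difference under every alternative tried. The exception was Cd28 (0.10), which was -0.20 as deposited, -0.14 with quantile normalization, -0.24 with loess and -0.0068 with a pseudocount. The number of members at least 2-fold higher, 1 with centring, was 0 as deposited, with quantile normalization and with loess. The number at least 2-fold lower, 0 with centring, was 1 as deposited and 1 with quantile normalization, Icos in each case. Over all kept genes, 390 were at least 2-fold higher and 175 lower. These counts were 121 and 579 as deposited, 250 and 288 with quantile normalization, 235 and 293 with loess, and 157 and 98 with a pseudocount. With no filter they were 701 and 380 of 13735 genes (5.1% and 2.77%), beside 5.24% and 2.35% of the 7446 kept genes. With the stricter filter they were 285 and 83 of 3819 genes (7.46% and 2.17%). Medians that changed sign on the values as deposited were those of other TNF and B7 ligands (-0.18), TRAF adaptors (-0.089), NF-kB genes (-0.21) and CD28 signalling genes (-0.15). The first was also -0.043 with quantile normalization and -0.057 with loess. With no filter the survival genes had a median of 0.13 and helper and regulatory T cell markers 0.17, and the T cell marker list was at 0.13 with quantile normalization. The B cell median of 1.84 was 0.94 with no filter, and the myeloid median of 0.84 was 2.09 with the stricter filter. The summed myeloid markers had a centred log2 ratio of 1.31, and of -0.32 without the MHC class II chains, an alternative chosen after seeing the data. A change as deposited comes from the constant shift of -0.30, and one with another filter from the genes tested. The loess change of Cd28 comes from the trend of 0.33 removed at its level, and the cause of the others was not tested. The brightest-probe setting changed no member, since each has 1 probe. No paired analysis was possible because each fraction has 1 array. Signal over background is not known, so Cd27 and Cd226, the dimmest members, are the least certain.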
